A study of Mus musculus with 30 samples.

Results

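The HSP, DNAJ and CCT chaperone genes were followed through the cell cycle of growing C2C12 myoblasts, a mouse line of muscle precursor cells. The set holds 80 of the 46078 genes in the count table. Members were taken by symbol, with no measured value in the rule: every mouse symbol of the form Hspa, Hspb, Hspd, Hspe, Hsph, Hsp90, Dnaja, Dnajb, Dnajc or Cct followed by its number, with 11 pseudogenes left out. RNA-seq was run on cells sorted by DNA content into 3 fractions, named G1, S and G2/M. All 3 fractions came from the same kind of culture, C2C12 kept in medium with 20% fetal bovine serum, then detached with trypsin and stained live with the DNA dye Hoechst 33342 for 15 min before sorting. The sample titles carry no other treatment and no genotype beyond that of the line. The titles of the S columns alone carry a lot mark, so for S a lot effect and a phase effect cannot be told apart.

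Chaperones bind proteins that are not yet folded and let them fold, often with ATP. HSP70 proteins (Hspa) hold short unfolded stretches, J proteins (Dnaj) deliver clients to them and start their ATP hydrolysis, and HSP110 proteins exchange the nucleotide. HSP90 acts later on signalling kinases and receptors, small HSPs (Hspb) hold aggregating proteins without ATP, and HSP60 with HSP10 encloses proteins in the mitochondrion. The CCT subunits, with Tcp1, form the ring TRiC that folds actin and tubulin, the proteins of the cytoskeleton and the mitotic spindle. Many of the cytosolic genes are targets of the heat shock factor HSF1, and the chaperones of the endoplasmic reticulum (ER) are targets of the unfolded protein response.

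Counts are fragments per gene, given as CPM, the count per 1000000 fragments of the library after scaling for its composition. Each phase has 2 columns, titled replicate 1 and 2, and the sources used here do not say whether these are separate cultures or repeat runs of 1 library. Because over all genes they differed by about sampling noise, they were summed to 1 library per phase. The G1 library held 32395232 fragments, the S library 35822319 and the G2/M library 35907974. Over members with at least 10 fragments, the columns differed by 1.46 times sampling noise in G1, by 1.09 times in S and by 0.828 times in G2/M (chi-square per degree of freedom). The G1 columns thus exceeded sampling noise over members, and over all genes the G2/M columns did, at 1.15 times. With 1 library per phase, no spread between replicates, test or p-value is given. Every ratio below compares these 3 libraries, and its 95% interval (exact binomial) covers counting error only. PCR copies are not independent molecules, so the interval may be too narrow even for that. The mitotic genes Ccnb1 (74.3, 242 and 390 CPM in G1, S and G2/M) and Plk1 (62.0, 96.7 and 205) were highest in the G2/M library. The G1/S genes Cdc6 (140.3, 11.2 and 24.2), Ccne2 (85.6, 16.6 and 20.8) and Pcna (408, 183 and 170.0) were highest in G1 and low in S, and no DNA content profile was used here to place the S fraction within its phase. Among 9 myoblast markers Des, Itga7, Cdh15 and Myf5 reached 66.0 CPM or more in every library, while Myod1 stood near 6 CPM and Pax7 had fragments in G2/M alone. Of 12 markers of other cell types 7 had no fragment in any library (Thy1, Ptprc, Rbfox3, Epcam, Cdh1, Adipoq and Plin1). Of the other 5, Tubb3 reached 254 CPM and the rest stayed under 10 CPM. In such bulk libraries a changed share of cells with a transcript and a changed amount of RNA per cell cannot be told apart.

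The chaperones ranged from some of the most abundant transcripts of the myoblasts to genes with no fragment. Together they took 2.74% of all fragments in G1 (exact 95% interval 2.73 to 2.74), 2.44% in S (2.44 to 2.45) and 2.60% in G2/M (2.60 to 2.61). Of the 80 members, 43 had a mean of at least 50 CPM over the 3 libraries, here called abundant. A further 16 reached 10 CPM in at least 1 library, 9 stayed below that and 12 had no fragment at all. Among the silent genes were Dnajb3, Dnajb8, Dnajb13, Cct6b, Hspb3, Hspb7 and Dnajc6, which are known from testis or from differentiated muscle or nerve. The other 5 without a fragment were Cct8l1, Dnajb7, Dnajc5b, Dnajc5g and Hspa1a. The 9 that stayed below 10 CPM were Dnajc4, Dnajc12, Dnajc22, Dnajc28, Dnajc30, Hspa1l, Hspa12b, Hspb2 and Hspb9.

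Per length of exon, 1 gene stood far above the others. Hsp90ab1, the constitutive cytosolic HSP90, had 1999.9, 1781 and 1965 CPM per kb in G1, S and G2/M, a mean of 24.4% of the set's summed CPM per kb. The mitochondrial pair Hspd1 (HSP60) and Hspe1 (HSP10) followed with 11.2% and 6.74%, then Cct2 with 5.59%, Hsp90aa1 with 5.54% and the mitochondrial HSP70 Hspa9 with 5.35%. Hsp90b1 and Hspa5, the HSP90 and HSP70 of the ER, held 4.39% and 3.46%. The 10 highest genes made up 73.4% of the set and the 19 highest 90.1%, so most of the J proteins together are a small part of the chaperone RNA. The cytosolic HSP70 Hspa8 ranked 11 with 3.19%. Its CPM per kb was 238, 201 and 314 in G1, S and G2/M, highest in G2/M.

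**Figure D1:**
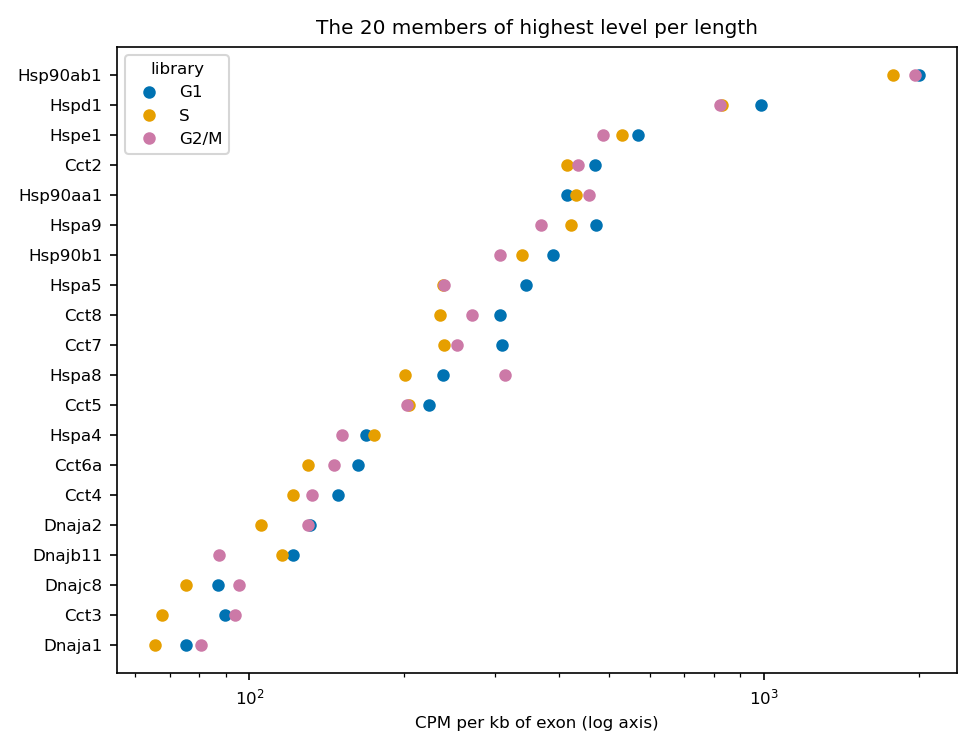
CPM per kb of exon (log axis) of the 20 chaperone genes with the highest mean, in the G1, S and G2/M libraries (1 point per library, no error bar). The 3 points of a gene lie close together beside the range over genes, and Hsp90ab1 is highest in all 3 libraries.

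A member was called when the libraries differed at least 2-fold and 1 of them held at least 10 CPM. Between S and G1, 0 of 57 members at that level were higher in S and 6 were lower, which is 10.5% of them, where 17.2% of all genes at that level were called (8.59% higher, 8.62% lower). Between G2/M and S, 6 of 57 were higher and 3 lower in G2/M (15.8%, against 13.7% of all genes: 7.13% higher, 6.60% lower). Between G2/M and G1, 4 of 58 were higher and 3 lower in G2/M (12.1%, against 19.9% of all genes, of which 9.82% were lower and the remainder higher). Calls were rarer at high level: of the 302 genes averaging 500 CPM or more, 17 of them members, 1.99%, 0.662% and 2.65% differed 2-fold in the 3 comparisons, against 39.8%, 36.2% and 43.8% of genes of 5 to 20 CPM. The members lie high on this scale, so nothing is read from their lower shares against G1. The comparisons share libraries, so they are not independent of each other.

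Ratios spread more among scarce genes, so abundant members were also counted at 1.5-fold. Between S and G1, 2 of 43 were higher in S (Dnajb12 and Dnajb2) and 2 lower (Hspb8 and Dnajc7), or 9.30%, where 20.9% of the 4239 genes with such a mean were called (12.2% higher, 8.75% lower). Between G2/M and S, 4 were higher in G2/M (Hspb8, Dnajc7, Hspb1 and Hspa8) and 1 lower (Dnajc25), or 11.6% against 14.6% (6.98% higher, 7.64% lower). Between G2/M and G1, 2 were higher in G2/M (Dnajb12 and Dnajc21) and 4 lower (Dnajc14, Dnajc3, Dnajc25 and Dnajb4), or 14.0% against 23.6% (12.5% higher, 11.1% lower). Of those called, Hspb1 against S (log2 ratio 0.57) and Dnajc21 (0.53), Dnajc25 (-0.54) and Dnajb4 (-0.57) against G1 were under 1.5-fold when 1 of the 2 columns was taken alone. Most abundant chaperones therefore stood within 1.5-fold in all 3 phases. Their median log2 ratio was -0.15 for S against G1 (0.01 over all abundant genes), 0.09 for G2/M against S (-0.01) and -0.06 for G2/M against G1 (-0.0045). The 302 genes averaging 500 CPM or more, 17 of them members, had medians of -0.10, -0.01 and -0.07. Neither the medians over all abundant genes nor the shares that follow were matched to the members for level. Of the 43, 22 were highest in G1, 15 in G2/M and 6 in S, and 18 were lowest in S. That is 51.2%, 34.9% and 14.0% highest in G1, G2/M and S, beside 36.4%, 32.0% and 31.6% of all abundant genes, and 41.9% lowest in S, beside 29.6%. Exon length moved with the phase ratios: in S against G1 the median over all abundant genes was -0.18 for the short class (up to 3474 bases), 0.01 for the middle class and 0.23 for the long class (6082 bases or more). Members had -0.18, -0.01 and -0.20 in these classes. With the trend of the log2 ratio on exon length removed, the S against G1 median of the members was -0.08, with 28 of 43 below 0. What lies behind the trend was not tested.

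**Figure D2:**
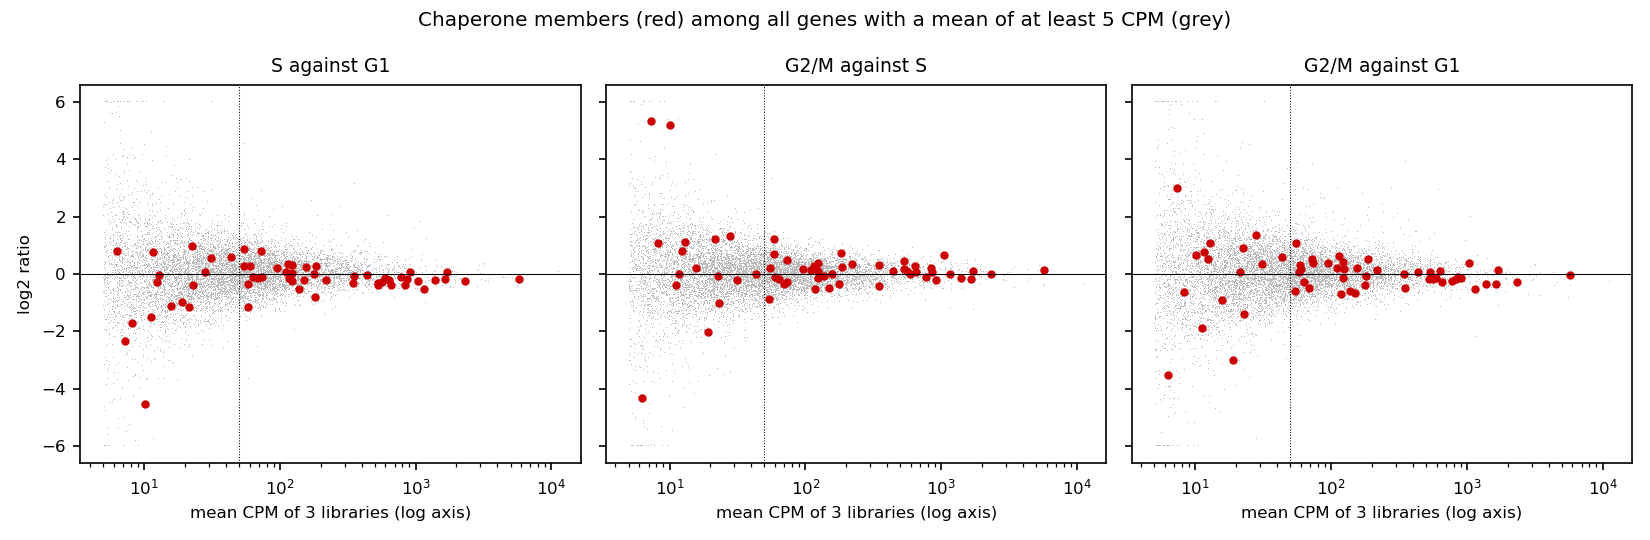
Log2 ratio of each comparison against the mean level over the 3 libraries (CPM, log axis), with chaperone genes in red and all other genes of at least 5 CPM in grey; ratios beyond 6 in size are drawn at 6. The dotted line marks a mean of 50 CPM. To its right the chaperones lie inside the grey cloud around 0, and to its left both spread widely.

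The abundant CCT genes, 7 of the 8 TRiC subunits, were all lower in S than in G1, by 1.09- to 1.32-fold, and Tcp1 was not. The summed CCT level was 5041 CPM in G1, then 4110 in S and 4558 in G2/M. The median log2 ratio was -0.33 for S against G1, where all genes averaging 500 CPM or more had a median of -0.10 and their robust SD 0.32. Cct3, the gamma subunit (chromosome 3, 88297116 to 88321767, plus strand), had 570.3 CPM in G1, then 432 in S and 597 in G2/M. Its S library was lowest and its G1 and G2/M libraries were close, at a log2 ratio of -0.40 (95% counting interval -0.43 to -0.37) for S against G1 and 0.47 (95% counting interval 0.44 to 0.50) for G2/M against S. Cct8, the theta subunit, was lowest in S as well, with 947 CPM in G1, then 724 in S and 835 in G2/M. For Cct7, the eta subunit, the levels were 759.9 CPM in G1, then 586 in S and 621 in G2/M. G2/M recovered little of the difference there, with a log2 ratio of -0.29 against G1. Cct6a (zeta) had 589.8, 469.8 and 528 CPM in G1, S and G2/M, and Cct4 (delta) had 625, 512 and 555 CPM; both were lowest in S. Cct2 (beta) and Cct5 (epsilon) differed least, with log2 ratios of -0.18 and -0.13 for S against G1. With the length trend removed the S against G1 median of the 7 was -0.27, Cct2 turned to 0.01 and Cct5 stood at -0.02. The lower level in S then held in sign for 6 of 7, with Cct2 and Cct5 near level.

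From S to G2/M, 6 of the 7 CCT genes were higher, with a median log2 ratio of 0.12 (0.10 with the length trend removed, and then 5 of 7). In G2/M against G1, 6 of 7 were lower, with a median of -0.16; Cct3 was the exception at 0.07, and at -0.02 with the trend removed. Tcp1, the alpha subunit of the same ring, is no member by its symbol and did not share the low level in S. It had 688 CPM in G1, then 709 in S and 774 in G2/M, and other annotated genes cover 16.9% of its exon bases. Such overlap was 15.3% for Cct6a, 8.73% for Cct7 and 6.22% for Cct8, and Cct2, Cct3, Cct4 and Cct5 had none. The remaining CCT members, Cct6b and Cct8l1, had no fragment. The list of Tcp1, prefoldin (which hands actin and tubulin to TRiC) and TRiC cofactors held 10 abundant genes of 13. Its median log2 ratio was -0.19 for S against G1, 0.13 for G2/M against S and -0.03 for G2/M against G1. With the length trend removed the medians were -0.11, 0.10 and 0.08. In S against G1, 3 of the 10 were at least 1.5-fold lower and 0 higher, beside 8.75% and 12.2% of all abundant genes. With the trend removed, Pdrg1 stood at -0.70, and Pfdn1 (-0.35) and Pfdn5 (-0.32) were under 1.5-fold. Vbp1 (0.72) and Pdcl (0.59) were then past 1.5-fold higher. The prefoldin subunit Pfdn1 had 72.8 CPM in G1, then 45.7 in S and 67.5 in G2/M, and the prefoldin-like Pdrg1 had 94.8, 52.95 and 53.7 CPM; Pfdn1 was lowest in S, and Pdrg1 was level in S and G2/M. Vbp1, a prefoldin subunit as well, went the other way with 92.3 CPM in G1, then 135 in S and 149 in G2/M, so the list did not move as a whole. Pdcl3, a phosducin-like cofactor of TRiC, had 247, 193 and 244 CPM. Of the cofactors that take tubulin from TRiC onward, Tbca had 325 CPM in G1, then 197 in S and 275 in G2/M. Tbca is short (503 exon bases), and with the length trend removed its S against G1 log2 ratio went from -0.72 to -0.23. G2/M against S went from 0.48 to 0.24. Tbcd had 92.2, 83.6 and 81.5 CPM. The other 4 on that list had a mean below 50 CPM.

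**Figure D3:**
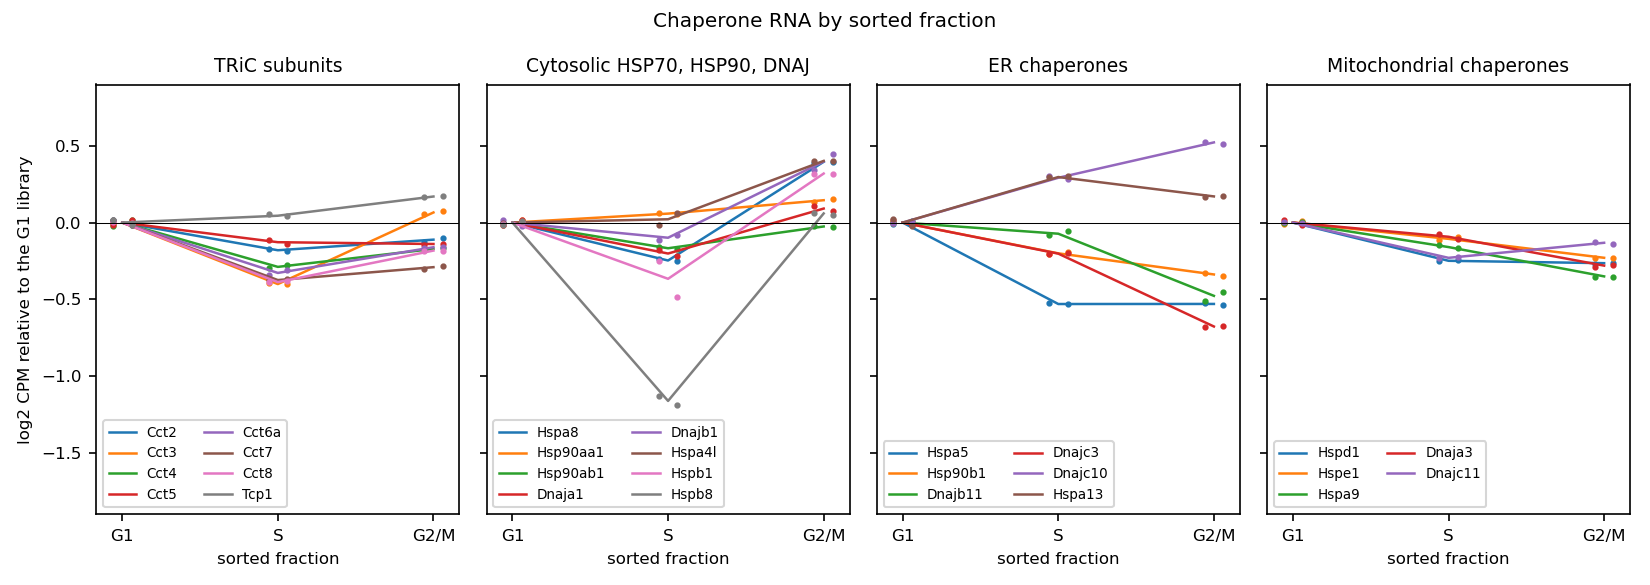
Level of named members in 4 panels as log2 CPM relative to the G1 library, for G1, S and G2/M; lines join the libraries and dots are the 2 columns summed to each library. All 7 CCT lines lie below 0 in S, the lines of Hspb8 and Hspa8 return to or pass the G1 level in G2/M, and Hspa5 stays below it.

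In the cytosol, Hspa8, its J protein Dnajb1 and the HSP110 gene Hspa4l were highest in G2/M, while the HSP90 genes differed little by phase. Hspa8, the constitutive HSP70 (chromosome 9, 40800984 to 40805200, plus strand), had 990.1 CPM in G1, then 834 in S and 1303 in G2/M. The G2/M library stood clear of the other 2, 1.56-fold higher than S at a log2 ratio of 0.64 (95% counting interval 0.62 to 0.66) and 1.32-fold higher than G1. At this level 4.97% of all genes differed by 1.5-fold or more between G2/M and S. Hspa8 has processed pseudogenes of near-identical sequence and small nucleolar RNA genes lie on 6.30% of its annotated exon bases, so its count is uncertain. Dnajb1, the J protein that works with HSP70 on aggregates, had 67.9 CPM in G1, then 63.4 in S and 89.4 in G2/M, a log2 ratio of 0.40 (95% counting interval 0.32 to 0.48) for G2/M against G1. Hspa4l, an HSP110 protein, had 110.5 CPM in G1, then 112 in S and 146 in G2/M, again highest in G2/M. Its relatives Hspa4 and Hsph1 differed less: 931, 967 and 835 CPM for Hspa4 and 435, 428 and 457 CPM for Hsph1 in G1, S and G2/M. Hspa4 was lowest in G2/M where Hspa4l was highest, so the 3 HSP110 genes did not share an order.

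The 2 cytosolic HSP90 genes were steady. Hsp90ab1 had 5998 CPM in G1, then 5341 in S and 5893 in G2/M, and its log2 ratio of -0.03 for G2/M against G1 was 0.03 with the length trend removed. Hsp90aa1, the inducible one, had 1626 CPM in G1, then 1693 in S and 1799 in G2/M, a small step upward. Dnaja1 and Dnaja2, the J proteins that serve Hspa8 in the cytosol, were lowest in S, with 651, 566 and 694 CPM and 373, 299 and 369 CPM in G1, S and G2/M. Dnajb6, a J protein that keeps polyglutamine proteins from aggregating, was lower in G2/M, with 192 CPM in G1, then 191 in S and 148 in G2/M. Dnajb4, a close relative of Dnajb1, ran against it: 174 CPM in G1, then 122 in S and 116 in G2/M, which is 1.5-fold lower in G2/M than in G1. The stress-inducible HSP70 genes had low counts. Hspa1b had 254, 486 and 489 fragments in G1, S and G2/M, or 7.92, 13.6 and 13.5 CPM, and Hspa1a had none. These 2 genes are near-identical copies, so both their total level and how the fragments fell between them are uncertain.

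The list of 15 HSF1 targets among the members held 13 abundant genes. Against G1, 11 of them were lower in S (median log2 ratio -0.17), and against S, 9 were higher in G2/M (median 0.14). G2/M against G1 split 8 higher and 5 lower, with a median of 0.07, so the list as a whole was near level between these 2 phases. With the length trend removed, 9 were lower in S and the medians were -0.12, 0.13 and 0.03. Hsf1 itself had 41.6 CPM in G1, then 34.9 in S and 52.2 in G2/M. Its relative Hsf2 had 114 CPM in G1, then 53.5 in S and 84.6 in G2/M and was lowest in S, at a log2 ratio of -1.10 (95% counting interval -1.18 to -1.02) against G1. Hsbp1, a small protein that binds HSF1 trimers, had 98.9, 60.6 and 97.00 CPM and was also lowest in S. The abundant small HSPs, Hspb8 and Hspb1, were lowest in S as well. Hspb8, which acts with the cochaperone Bag3 in chaperone-assisted autophagy in muscle (chromosome 5, 116408491 to 116422864, minus strand), had 70.6 CPM in G1, then 31.5 in S and 73.5 in G2/M. S was 2.24-fold lower than G1 at a log2 ratio of -1.16 (95% counting interval -1.27 to -1.06), and G2/M was back at the G1 level (0.06). Hspb1, the actin-associated HSP27 homologue, had 58.3 CPM in G1, then 45.2 in S and 72.8 in G2/M. Its G2/M library was highest, at 0.69 (95% counting interval 0.60 to 0.78) against S. Hspb1 is short (1031 exon bases), and its S against G1 log2 ratio of -0.37 was -0.03 with the length trend removed, while G2/M against S then stood at 0.52, under 1.5-fold. No other small HSP was abundant. The summed level of the 7 was 149 CPM in G1, then 80.6 in S and 155 in G2/M.

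The promoters of Hspb1 and Hspe1 are shown because they carry the heat shock element, the site of HSF1, in its letters. Both are the 250 bases before the RefSeq start site (GRCm38.p6), on the gene's own strand, with matches in capitals: 2 units head to head (GAANNTTC) in Hspb1, at -117 to -110 and -97 to -90 from the start, and 3 alternating units (TTCNNGAANNTTC and GAANNTTCNNGAA, overlapping) in Hspe1, at -89 to -77 and -84 to -72.
Hspb1, chr5:135887669-135887918, plus strand: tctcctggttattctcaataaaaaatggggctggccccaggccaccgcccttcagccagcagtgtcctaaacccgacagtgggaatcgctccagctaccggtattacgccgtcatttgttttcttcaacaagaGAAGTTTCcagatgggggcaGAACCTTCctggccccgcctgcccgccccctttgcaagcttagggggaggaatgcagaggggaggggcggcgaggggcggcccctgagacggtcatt
Hspe1, chr1:55087898-55088147, plus strand: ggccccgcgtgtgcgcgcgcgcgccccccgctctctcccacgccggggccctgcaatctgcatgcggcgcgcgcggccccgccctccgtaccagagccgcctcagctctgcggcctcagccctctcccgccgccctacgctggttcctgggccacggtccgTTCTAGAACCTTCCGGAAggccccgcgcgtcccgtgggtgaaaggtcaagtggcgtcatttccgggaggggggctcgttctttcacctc
The promoter table matched 65 of the 80 members. Head-to-head units were found in 13 of them (20.0%), beside 7.73% of all 27025 genes in the table, and tail-to-tail units (TTCNNGAA) in 7 (10.8%, beside 8.11%). All 3 alternating units stood in Dnajb6, Hspd1 and Hspe1, 4.62% of members beside 0.514% of all genes. Hspd1 and Hspe1 lie head to head on chromosome 1, so their match is the same DNA read from both sides. A match of letters is a description and shows no binding. Members with a match did not share a phase order: Hspb1 was highest in G2/M, and Dnajb6, Hspd1 and Hspe1 were lower in G2/M than in G1.

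In the ER, Hspa5, Hsp90b1, Dnajb11 and Dnajc3 were lower in G2/M than in G1. The 6 abundant members of the ER list had a median log2 ratio of -0.41 in that comparison (-0.38 with the length trend removed), with 4 of 6 lower, and the summed list was 3912 CPM in G1, then 3275 in S and 3047 in G2/M. Hspa5 (BiP), the ER HSP70, which also holds the sensors of the unfolded protein response inactive (chromosome 2, 34771970 to 34777547, plus strand), had 1457 CPM in G1, then 1008 in S and 1009 in G2/M. The G1 library was the high one: S and G2/M were level with each other and both 1.44-fold lower than G1, at a log2 ratio of -0.53 (95% counting interval -0.55 to -0.51) for G2/M. Among all genes of at least 500 CPM, 8.94% differed 1.5-fold or more in that comparison, with a robust SD of 0.31. Hsp90b1 (GRP94), the ER HSP90, stepped down with each phase, from 1568 CPM in G1, then 1365 in S and 1240.5 in G2/M. Other annotated genes cover 15.7% of its exon bases. Dnajb11, a J protein that binds unfolded clients with BiP, was close in G1 and S and lower in G2/M: 393 CPM in G1, then 374 in S and 283 in G2/M. Dnajc3 (P58IPK), a BiP J protein that also inhibits the stress kinase PERK, had 180.1 CPM in G1, then 157 in S and 113 in G2/M, 1.6-fold lower in G2/M than in G1 at -0.68 (95% counting interval -0.74 to -0.62).

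The other abundant genes on the list, Dnajc10 and Hspa13, were higher in G2/M than in G1. Dnajc10 (ERdj5), a J protein with disulfide reductase domains, had 153 CPM in G1, then 187 in S and 219 in G2/M and a log2 ratio of 0.52 (95% counting interval 0.47 to 0.57) against G1. Hspa13, an HSP70 relative of microsomes, had 111 CPM in G1, then 136 in S and 125 in G2/M, highest in S. Dnajb9 (ERdj4), a J protein that represses the stress sensor IRE1, was scarcer, with 25.7 CPM in G1, then 11.6 in S and 27.02 in G2/M, and was lowest in S. Dnajc1, the eighth on the list, had a mean of 31.2 CPM. Outside the members, the ER folding list (calnexin, calreticulin, protein disulfide isomerases and others) held 11 abundant genes of 12. Of these, 10 were lower in S than in G1 and 10 lower in G2/M than in G1, with medians of -0.43 and -0.20. With the length trend removed 9 were lower in each and the medians were -0.18 and -0.18. Serpinh1 (HSP47), the collagen chaperone, had 924 CPM in G1, then 515 in S and 633 in G2/M. Creld2, an ER stress gene, had 101, 55.9 and 70.1 CPM, and Ppib, the ER prolyl isomerase, had 94.1, 66.2 and 62.1 CPM. All 3 were highest in G1, and the annotation shares 54.2% of the exon bases of Ppib with Snx22, so its values are uncertain.

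The promoters of Hspa5, Hsp90b1 and Dnajc3 are shown because they were the 3 members that held the ER stress element (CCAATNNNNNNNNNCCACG, in capitals, on either strand). All 3 were lower in G2/M than in G1, as were 24 of the 43 abundant members, with or without the element. Here too a match of letters shows no binding, and a link to the phase ratios was not tested. The 250 bases before the RefSeq start site (GRCm38.p6) are given on the gene's strand. The match lies at -65 to -47 in Hspa5, at -212 to -194 and -107 to -89 in Hsp90b1 and at -105 to -87 in Dnajc3.
Hspa5, chr2:34771840-34772089, plus strand: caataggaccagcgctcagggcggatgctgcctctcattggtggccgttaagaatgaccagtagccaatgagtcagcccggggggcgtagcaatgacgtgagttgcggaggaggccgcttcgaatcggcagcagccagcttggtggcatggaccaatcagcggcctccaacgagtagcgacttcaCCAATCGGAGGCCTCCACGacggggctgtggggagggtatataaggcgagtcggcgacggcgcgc
Hsp90b1, chr10:86705445-86705694, minus strand: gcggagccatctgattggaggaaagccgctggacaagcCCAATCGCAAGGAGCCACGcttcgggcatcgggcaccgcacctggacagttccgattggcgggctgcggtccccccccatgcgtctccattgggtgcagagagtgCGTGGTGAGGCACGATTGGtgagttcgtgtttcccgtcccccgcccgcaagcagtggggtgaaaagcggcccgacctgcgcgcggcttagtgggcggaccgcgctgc
Dnajc3, chr14:118937682-118937931, plus strand: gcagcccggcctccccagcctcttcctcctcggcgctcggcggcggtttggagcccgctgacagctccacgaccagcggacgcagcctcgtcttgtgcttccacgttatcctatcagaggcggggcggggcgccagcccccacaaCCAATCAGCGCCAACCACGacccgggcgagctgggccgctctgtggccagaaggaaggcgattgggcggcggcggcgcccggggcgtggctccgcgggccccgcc
The 3 genes are 4.62% of the 65 members with a promoter in the table, and 0.13% of all 27025 genes (35 genes) held the element.

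**Figure D4:**
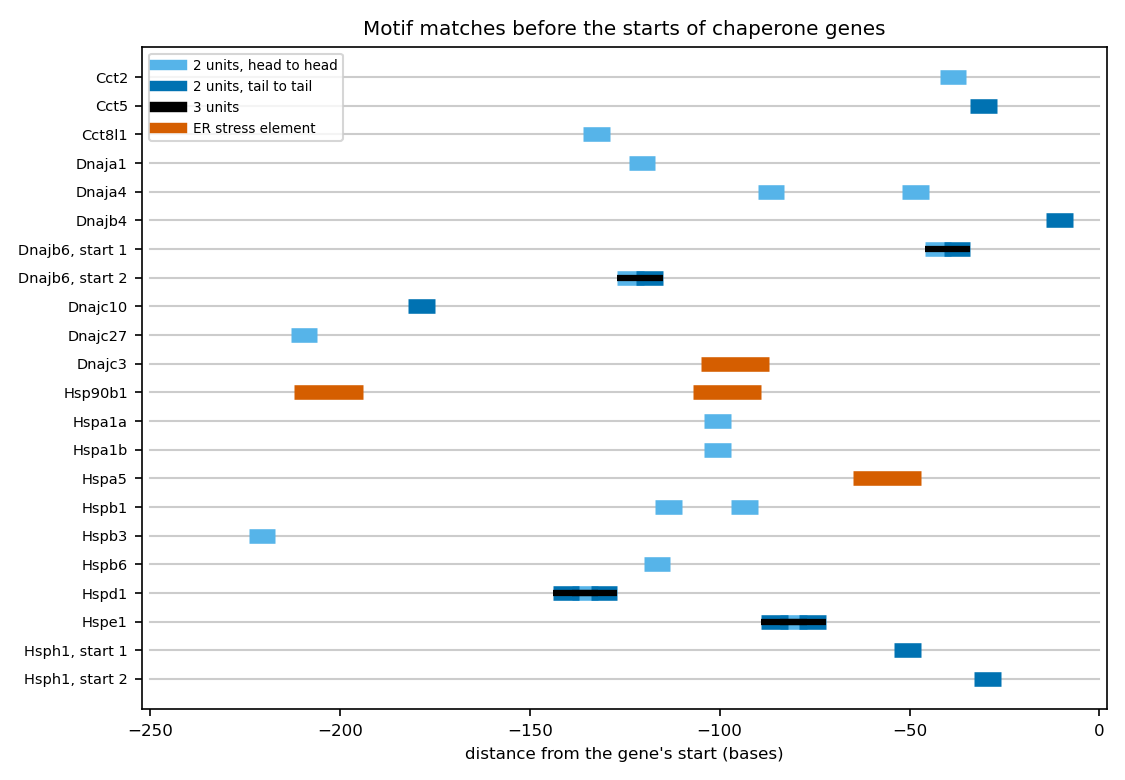
Position of each motif match in the 250 bases before the start site (bases from the start, at 0) for the members with a match, by motif. The ER stress element is in 3 genes and the 3-unit heat shock element in 3 others.

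The abundant mitochondrial chaperones had their highest level in G1, while the scarcer import-motor genes Dnajc19 and Dnajc15 were called higher in G2/M. All 5 abundant members of the list were lower in S (median log2 ratio -0.16) and in G2/M (median -0.26, and -0.27 with the length trend removed) than in G1, and the summed list was 5530 CPM in G1, then 4835 in S and 4593 in G2/M. Hspa9 (mortalin), which pulls proteins through the inner membrane, stepped down from 1852 CPM in G1, then 1658 in S and 1453 in G2/M, a log2 ratio of -0.35 (95% counting interval -0.37 to -0.33) for G2/M against G1. Hspd1 had 2609 CPM in G1, then 2195 in S and 2172 in G2/M, with S and G2/M level and G1 above both. Its partner Hspe1 had 841 CPM in G1, then 781 in S and 717 in G2/M. Dnaja3 (Tid1), the J protein of Hspa9, had 69.2 CPM in G1, then 64.9 in S and 56.9 in G2/M, and Dnajc11, a protein of the cristae-organizing complex, had 133, 114 and 122 CPM. Hspd1 and Hspe1 both have processed pseudogenes, which leaves their counts uncertain. With the length trend removed, Hspe1 (1474 exon bases) turned to 0.15 in S against G1 and stayed below 0 in G2/M (-0.10). Of the 7 other mitochondrial folding and protease genes 3 were abundant, and they did not move together. Afg3l2, an inner membrane protease, had 62.6 CPM in G1, then 108 in S and 87.4 in G2/M, lowest in G1. Yme1l1, another, had 259, 318 and 379.9 CPM, highest in G2/M. Lonp1, the matrix protease, had 239.6 CPM in G1, then 202 in S and 173 in G2/M, stepping down as Hspa9 did.

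Members on neither the ER nor the mitochondrial list, 32 of them abundant, had a median log2 ratio of 0.06 for G2/M against G1 (17 higher, 15 lower), 0.15 for G2/M against S (22 higher, 10 lower) and -0.14 for S against G1. In S against G1 the ER and mitochondrial lists had medians close to that, -0.14 and -0.16. The ER list is of 8 genes and leaves out J proteins of the ER membrane such as Dnajb12, which is counted among the 32. The difference between the lists was not tested.

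**Figure D5:**
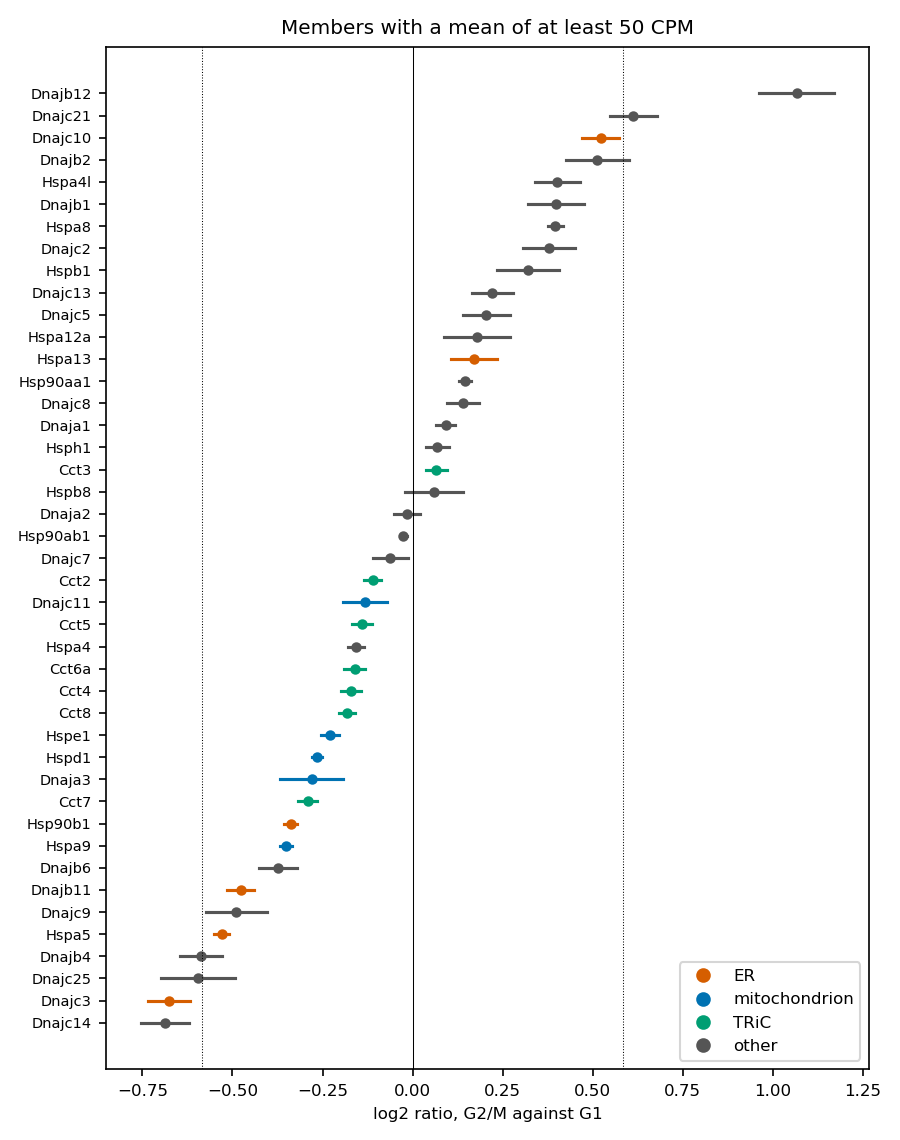
Log2 ratio of G2/M against G1 for the 43 abundant members in rank order, with exact 95% counting intervals, coloured by ER list, mitochondrial list, TRiC or other; dotted lines mark 1.5-fold. Dnajb12 stands alone at the upper end, and all 5 mitochondrial members lie left of 0.

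In G2/M against G1, the largest ratios among the abundant members were in J proteins. Dnajb12, an ER membrane J protein used in degradation of membrane proteins (chromosome 10, 59879556 to 59899302, plus strand), had 33.5 CPM in G1, then 61.2 in S and 70.1 in G2/M. G1 was the low library, and G2/M was 2.09-fold higher at a log2 ratio of 1.07 (95% counting interval 0.96 to 1.17). At a mean of 50 to 200 CPM 7.30% of all genes differed 2-fold in that comparison. Dnajb2, a J protein with ubiquitin-interacting motifs, had 52.4 CPM in G1, then 91.5 in S and 74.8 in G2/M, highest in S at 0.80 (95% counting interval 0.72 to 0.89) against G1. Dnajc7 (TPR2), which binds both HSP70 and HSP90, dipped in S, with 215 CPM in G1, then 124 in S and 206 in G2/M: log2 ratios of -0.80 (95% counting interval -0.86 to -0.75) for S against G1 and 0.74 (95% counting interval 0.69 to 0.79) for G2/M against S. Like Hspb8, it was lowest in S and close to its G1 level in G2/M. Dnajc25 had 56.7 CPM in G1, then 69.02 in S and 37.6 in G2/M and Dnajc14 had 140.3 CPM in G1, then 126 in S and 87.1 in G2/M, both lowest in G2/M. The annotation shares 36.9% of the exon bases of Dnajc14 with Ormdl2, so its ratio is uncertain.

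A list of 7 J proteins of the spliceosome, nucleus or endocytosis held 5 abundant genes. Of these, 4 were higher in G2/M than in G1, with a median log2 ratio of 0.22. With the length trend removed 3 of 5 were, at the same median of 0.22. Of the others listed, Dnajc17 was scarce and lower in G2/M (0.579 CPM, beside 6.71 in G1), and Dnajc6 had no fragment. Dnajc21, needed for maturation of the large ribosomal subunit, had 90.97 CPM in G1, then 115 in S and 139 in G2/M, a log2 ratio of 0.61 (95% counting interval 0.55 to 0.68) for G2/M against G1. Dnajc2 (zuotin), which sits on the ribosome, had 82.5 CPM in G1, then 96.3 in S and 107 in G2/M, in the same order. Dnajc8, a spliceosomal J protein, had 222, 192 and 244 CPM and Dnajc13, of endosomes, had 140.2, 165 and 163 CPM. The ratio of Dnajc13, with 11938 exon bases, went from 0.22 to -0.03 with the length trend removed. Dnajc9, a histone chaperone, was the exception among the 5, with 79.1 CPM in G1, then 72.1 in S and 56.3 in G2/M, and -0.49 (95% counting interval -0.57 to -0.40) for G2/M against G1. Its log2 ratio for S against G1 was -0.13, and 0.10 with the length trend removed, so G1 and S were close. G2/M against G1 was then -0.38.

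Among scarcer members the ratios were wide, as they were for all genes there: the robust SD of the log2 ratio over genes of 5 to 20 CPM was 1.26 for G2/M against G1, beside 0.31 at 500 CPM or more. Dnajc19, a J protein of the mitochondrial import motor, had 18.2 CPM in G1, then 18.9 in S and 47.04 in G2/M, and Dnaja4 had 9.51, 9.21 and 19.96 CPM; both were highest in G2/M. The annotation shares 44.1% of the exon bases of Dnaja4 with Wdr61. Dnajc15, also of the import motor, had 77, 17 and 690 fragments in G1, S and G2/M, and Dnajb5 had 374, 18 and 664 fragments. Hspb11, an intraflagellar transport protein in spite of its symbol, went the other way with 35.1 CPM in G1, then 17.7 in S and 4.38 in G2/M, and Dnajc16 with 32.1, 24.7 and 12.3 CPM. Dnajc17, a nuclear J protein, had 215, 415 and 21 fragments, highest in S and almost gone in G2/M. Dnajc27 had 20.7 CPM in G1, then 7.34 in S and 5.57 in G2/M and Dnajc24, which serves diphthamide synthesis, had 23.6, 11.02 and 12.7 CPM; both were highest in G1. Hspb6 was the sixth member called lower in S. Dnajb14, the ER membrane relative of Dnajb12, had 32.7, 49.2 and 49.1 CPM in G1, S and G2/M and, like Dnajb12, was lowest in G1; so was Dnajc18 with 14.1, 27.5 and 26.4 CPM. Hspa2, known from testis, had 11.4, 9.49 and 16.3 CPM. These counts are of fragments in single libraries, and between G2/M and G1 43.8% of all genes of 5 to 20 CPM and 20.7% of those of 20 to 50 CPM differed 2-fold. Of the 2 abundant members not yet named, Dnajc5, the synaptic vesicle J protein, had 104, 108 and 119 CPM and Hspa12a had 53.7, 65.3 and 60.8 CPM.

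Co-chaperones of HSP70 and HSP90 that are no members had mixed ratios as well. Of 35 listed, 24 were abundant. Their median log2 ratios were -0.06 for S against G1, -0.09 for G2/M against S and -0.13 for G2/M against G1. Past 1.5-fold were 3 higher and 3 lower in S against G1 and in G2/M against S. In G2/M against G1 there were 2 higher and 3 lower. All abundant genes had 12.2% higher and 8.75% lower in S against G1, and 6.98% and 7.64% in G2/M against S. For G2/M against G1 the shares were 12.5% and 11.1%. Cdc37l1, a relative of the kinase cochaperone Cdc37, had 44.2 CPM in G1, then 101 in S and 56.5 in G2/M, highest in S. Fkbp5, an HSP90-bound isomerase of steroid receptor complexes, was lower in G2/M, with 60.4 CPM in G1, then 60.3 in S and 31.3 in G2/M. Nudcd2, an HSP90 cochaperone of the NudC family, was higher there, with 51.2 CPM in G1, then 48.9 in S and 97.5 in G2/M.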

How the data were processed

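The deposited values are raw counts of fragments. Per the file headers, the authors ran featureCounts 1.5.0-p3 on paired reads against the exons of an Ensembl GRCm38 gene set, and the command names no strand, multimapping or overlap option. The submitters' processing notes list HISAT2 2.1.0, SAMtools 1.6, featureCounts 1.5.0 and R 4.0.1 without roles. Reads had 101 cycles, per the labels' protocols. ChIP-seq data (24 samples) were not used here.

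Identifiers were matched to symbols for 45143 of 46078 genes (98.0%). The 2 columns of each phase (16109055 to 18103769 fragments each) were compared by chi-square, leaving out genes under 10 fragments in both together. Over all genes, chi-square per degree of freedom was 1.00 in G1 (p = 0.450), 1.03 in S (p = 0.0109) and 1.15 in G2/M (p = 3.11e-28). Over members it was 1.46 in G1 (chi-square p = 0.00947), 1.09 in S (p = 0.300) and 0.828 in G2/M (p = 0.832). These values compare reads of 2 columns only. The columns were treated as repeat measurements and summed to 1 library per phase, so no fit with p-values was made. CPM used TMM factors from edgeR 4.0.16 (R 4.3.3) of 0.990, 1.00 and 1.01. Counts under 3 were set to 3 before a ratio. Ratios have exact Clopper-Pearson intervals. The length trend is a lowess fit of the log2 ratio on log10 exon length. The script for ratios and intervals was checked on simulated counts of known fold.

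Named in every case were fixed members of each family and Tcp1, Hsf1 and Hsf2. Further named were the 5 largest abundant ratios in each direction per comparison, the 3 scarcer called members with most fragments per direction, and the 2 largest per list of genes that are no members. One gene that this rule selects is not reported here. Others were named after their values were seen, to account for all members or to complete a list. The rule for members and the lists were written with earlier results of these data known. Motifs were searched on both strands; promoters are from RefSeq (GRCm38.p6). Alternatives were DESeq2 1.42.0 size factors, library size alone, each column alone, the length trend removed, and other levels and folds.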

Additional observations from a re-analysis of the deposited data

How the results depend on the processing

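With DESeq2 size factors in place of TMM no direction of an abundant member changed, and with library size alone 1, 2 and 2 of 43 changed sign in S against G1, G2/M against S and G2/M against G1, all at log2 ratios under 0.03 in size. With the length trend removed 8, 3 and 6 changed sign. The members called 2-fold (6 in S against G1, 9 in G2/M against S, 7 in G2/M against G1) became 14, 14 and 18 at 1.5-fold and 13, 16 and 15 with no minimum level. The abundant members called (4, 5 and 6) became 12, 12 and 16 with a mean of at least 10 CPM, since more genes then enter. The median for S against G1 went from -0.15 to -0.081 with the length trend removed, and that for G2/M against G1 from -0.06 to 0.022 when members down to a mean of 10 CPM were taken; the cause was not tested. With each column alone, members called ran from 6 to 8, 8 to 9 and 7 to 7, abundant members called from 4 to 4, 4 to 5 and 4 to 5, and the medians from -0.16 to -0.13, 0.07 to 0.09 and -0.10 to -0.03. No paired analysis was possible because no result comes from a test: the columns titled replicate 1 and 2 were taken as repeat measurements of 1 library, and a fit with them as replicates was not made here. A floor of 3 fragments is 0.0827 to 0.0936 CPM, so members without a fragment are undetected at this depth.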
